A study of Mus musculus with 9 samples.

Results

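The comparison described here set whole bladder pieces taken 10 days after hydrogen peroxide (H2O2) had been run into the bladder against pieces from control mice, across every expressed gene. Its libraries were taken by label alone: the 3 libraries labelled as given H2O2 and saline (H2O2/saline 1, 2 and 3) and the 3 control libraries (control 1, 2 and 3), which are 6 of the 9 libraries of the series. The 3 remaining libraries, from H2O2 bladders of mice given SB431542, a blocker of the TGF-beta type I receptor kinase, entered the fit only to share the estimate of spread. Of 53342 genes in the deposited table, 19393 had no count in any library and 19314 had enough counts to be tested.

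All mice were female C57BL/6N of wild-type genotype, 8 weeks old at infusion. The H2O2/saline mice received 1.5% H2O2 through the urethra on day 0 and saline into the peritoneum, and the bladder was removed on day 10. The labels call the control mice untreated, whereas the methods of the study describe a saline infusion in place of H2O2. Both groups give a mixed tissue, so fewer cells of a type and less RNA per cell cannot be told apart in any value below. The series text calls the samples biological replicates, but no label names an animal, so p-values measure the spread between these samples.

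The bladder is lined by urothelium, a layered epithelium in which basal cells, marked by keratins such as Krt5 and Krt14, lie under umbrella cells that cover the urine side with uroplakin plaques. Beneath it lie a collagen-rich lamina propria with vessels, nerves and resident macrophages, and the detrusor, the smooth muscle that empties the organ. Oxidant damage is known to kill or shed the lining, after which basal cells divide, blood leukocytes enter the wall and fibroblasts lay down matrix. The defining markers of the tissue were present in all 6 libraries. Upk1a, a uroplakin, was at 7898, 3095 and 3083 CPM (counts scaled to library size by the trimmed mean of M-values) in H2O2/saline bladders and at 10971, 6430.1 and 6862 CPM in controls, given here and below in the order of replicates 1, 2 and 3. Des, the intermediate filament of muscle, was at 4399, 5070.3 and 4534 CPM in H2O2/saline bladders and 4226, 9202 and 6423 CPM in controls.

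The 9 libraries held 37329213 to 41055328 counts each, so depth was nearly even, and 3 counts in 1 library correspond to 0.0793 CPM. H2O2/saline 1 stood apart in 1 transcript, CT010467.1, which took 4.28% of its counts. That gene was at 47066, 3489 and 4572 CPM in H2O2/saline bladders, against 2537, 5730 and 7051 CPM in controls.

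H2O2/saline 1 also lay nearer the controls across all genes. On log2 CPM with a prior count of 2, 1566 genes were at least 2-fold above the control mean in H2O2/saline 1, 2549 in H2O2/saline 2 and 2564 in H2O2/saline 3, and 1237, 2536 and 2951 genes were at least 2-fold below it. Each control set against the mean of its fellow controls gave 1802, 1477 and 1375 genes at least 2-fold higher and 1428, 1594 and 1885 at least 2-fold lower. By this count H2O2/saline 1 was within the range of the controls for higher genes and below that range for lower genes, while H2O2/saline 2 and 3 were beyond it in both directions. The reference of a control leaves that control out and so rests on fewer libraries. The counts of the 2 groups are therefore not on the same scale. All 3 H2O2/saline libraries were at least 2-fold higher for 454 genes and lower for 218. A further 1179 genes were at least 2-fold higher in H2O2/saline 2 and 3 alone, and 1078 lower, and in 657 and 580 of these H2O2/saline 1 was within 0.5 log2 units of the control mean. Across the 19314 genes, which share libraries and the control mean and are not independent, the deviations of H2O2/saline 1 had a correlation of 0.29 with the mean of H2O2/saline 2 and 3, and those of H2O2/saline 2 with H2O2/saline 3 had one of 0.62. So each value below is shown by library, and the calls without H2O2/saline 1 are given beside those with it.

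**Figure D1:**
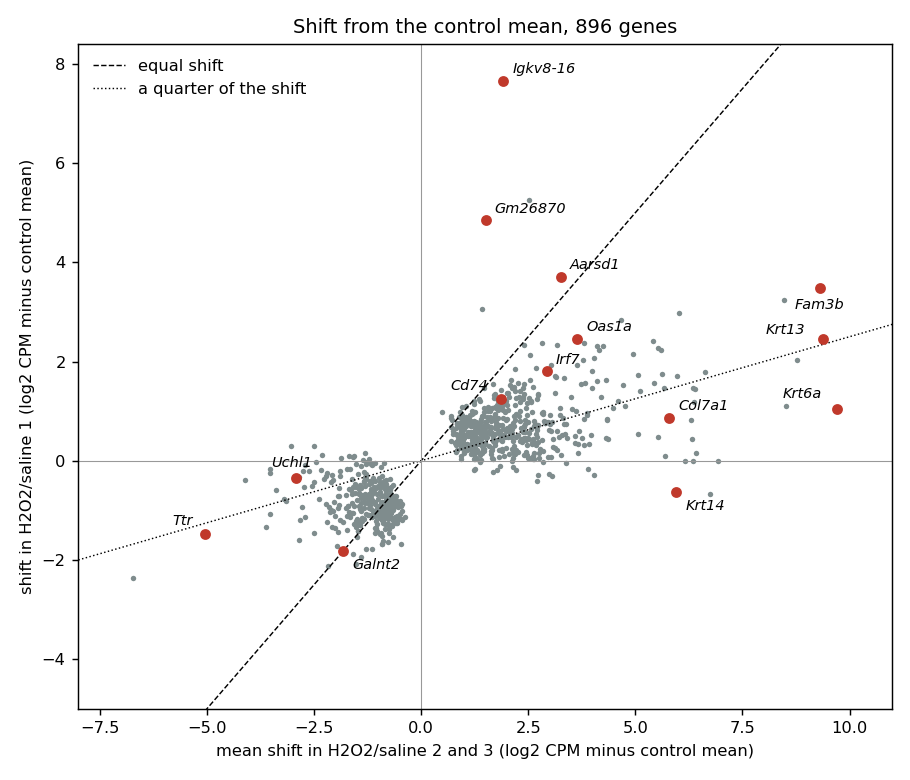
Deviation of H2O2/saline 1 from the control mean (y axis, log2) against the mean deviation of H2O2/saline 2 and 3 (x axis, log2) for the 896 genes of at least 1 CPM called with the replicate block, 1 point per gene. Points on the dashed line shifted equally, points on the dotted line shifted 0.25 times as far in H2O2/saline 1, and the median share was 0.46.

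At day 10 after H2O2, 9 genes rose (0.0466% of the 19314 tested) and 1 fell (0.00518%) past an adjusted p of 0.05 in edgeR's quasi-likelihood test. Together they are 0.0518% of the tested genes, while 3447 genes had an unadjusted p below 0.05. Deviations of same-numbered H2O2/saline and control samples were correlated at 0.312, 0.119 and 0.112 for replicates 1, 2 and 3. Other pairings reached 0.0801, so the match was clear only in replicate 1. With the replicate number as a block the count became 925 genes (4.79%). Of these, 573 were higher (2.97%) and 352 lower (1.82%) in H2O2/saline bladders. On the 6 libraries of the 2 groups alone the block gave 40 calls. Without H2O2/saline 1 and with no block the test called 1822 genes (9.43%), 1066 higher (5.52%) and 756 lower (3.91%). Leaving out single libraries with no block gave 252 calls without control 1, 1 without H2O2/saline 2 or 3, 33 and 5 without SB431542 libraries 1 and 2, and 0 without control 2 or 3, where edgeR had 2808 and 2418 genes at an unadjusted p below 0.05. DESeq2 on all 9 libraries called 1415. In all, 1874 genes (9.70%) had every H2O2/saline library above every control and 1730 (8.96%) had every one below. The median log2 fold change over all tested genes was -0.02 and 48.6% of them were positive, the background for the list values.

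**Figure D2:**
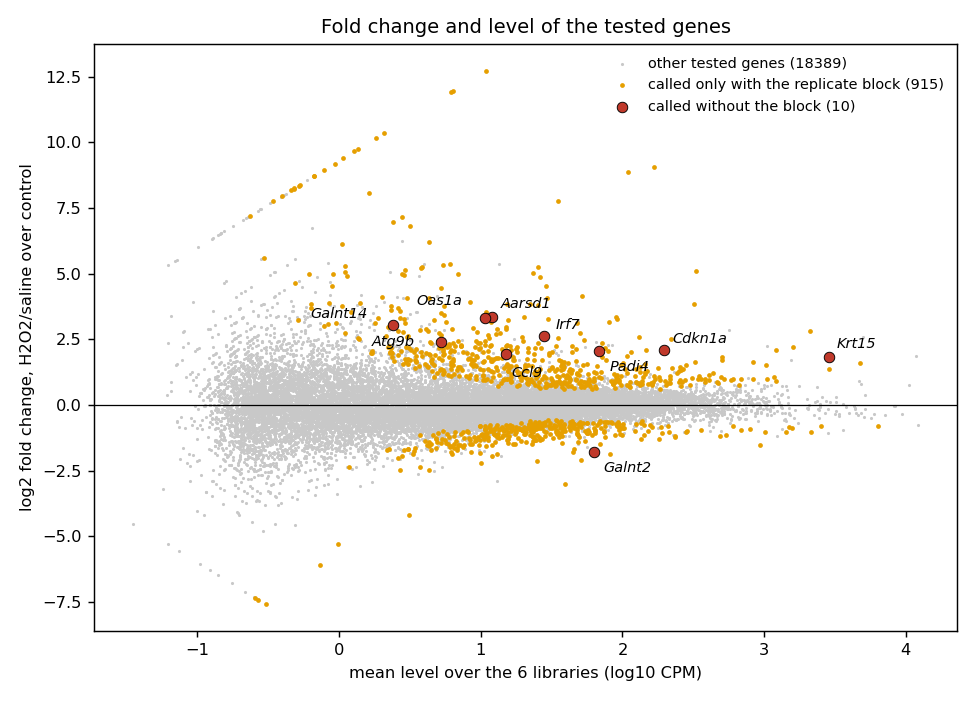
Fitted log2 fold change of H2O2/saline over control (y axis) against mean level in CPM (x axis, log scale) for 19314 genes, 1 point per gene. The 10 called genes are labelled, 915 further genes are called only with the replicate block, and the diagonal streaks are genes with no count in 1 group, whose fitted value depends on the prior count.

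The genes that rose belong to several programmes. Log2 fold changes are given ± SE, and "block" marks the adjusted p with the replicate block. Krt15, a keratin of basal epithelial cells, had 3244, 5348 and 4917 CPM in H2O2/saline bladders, against 1573, 1131 and 1131 CPM in controls (log2 fold change 1.82 ± 0.26, adjusted p = 0.0356). Its lowest injured library stood above its highest control. Cdkn1a, which encodes the cell cycle inhibitor p21 and is induced by p53, had 179, 408 and 360.2 CPM in H2O2/saline bladders, against 70.5, 89.5 and 63.3 CPM in controls (log2 fold change 2.09 ± 0.30, adjusted p = 0.0356). Padi4, an enzyme that converts arginine in histones to citrulline and is known from neutrophils, had 69.3, 143 and 119 CPM in H2O2/saline bladders, against 34.9, 25.4 and 20.2 CPM in controls (log2 fold change 2.04 ± 0.27, adjusted p = 0.0236). In these 3 genes H2O2/saline 1 was the lowest of the injured bladders and was still above every control. Ccl9, a chemokine that draws myeloid cells, had 19.0, 24.8 and 27.6 CPM in H2O2/saline bladders, against 6.80, 5.73 and 5.88 CPM in controls (log2 fold change 1.96 ± 0.24, adjusted p = 0.0150), with the 3 injured libraries closer together than for the genes above.

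Both interferon genes among the 10 were several-fold higher. Irf7, the transcription factor that amplifies type I interferon production, had 27.0, 59.2 and 59.2 CPM in H2O2/saline bladders, against 7.83, 9.51 and 6.14 CPM in controls (log2 fold change 2.63 ± 0.35, adjusted p = 0.0236). Irf7 overlaps Phrf1, a gene on the opposite strand, which had 95.7, 73.4 and 72.3 CPM in H2O2/saline bladders and 102, 93.8 and 55.9 CPM in controls. The sources used here do not say whether counting used strand. Summed, Irf7 and Phrf1 had 123, 132.5 and 131 CPM in H2O2/saline bladders and 110, 103 and 62.0 CPM in controls, with a log2 fold change of 0.49 ± 0.21 (SE, adjusted p = 0.2503, block 0.146), so the sum was not called. Oas1a, which makes the oligoadenylates that switch on RNase L and belongs to a cluster of near-identical genes among which reads may be shared, had 10.6, 25.9 and 22.4 CPM in H2O2/saline bladders, against 1.85, 2.69 and 1.34 CPM in controls (log2 fold change 3.32 ± 0.41, adjusted p = 0.0150). Galnt14, an enzyme that starts mucin-type O-glycans, had 2.80, 4.76 and 5.38 CPM in H2O2/saline bladders, against 0.688, 0.475 and 0.412 CPM in controls (log2 fold change 3.03 ± 0.43, adjusted p = 0.0337), so it was rare even where higher. Atg9b, a membrane protein of autophagy, had 8.50, 8.69 and 9.09 CPM in H2O2/saline bladders, against 1.35, 1.95 and 1.70 CPM in controls (log2 fold change 2.39 ± 0.30, adjusted p = 0.0150), and its 3 injured libraries lay within 1 CPM of each other. Atg9b likewise lies across the opposite strand from Nos3. Nos3, the endothelial nitric oxide synthase, had 8.93, 23.4 and 22.9 CPM in H2O2/saline bladders and 9.60, 11.1 and 8.43 CPM in controls. Their sum was 17.4, 32.1 and 32.0 CPM in H2O2/saline bladders, against 10.9, 13.02 and 10.1 CPM in controls (log2 fold change 1.26 ± 0.27, adjusted p = 0.0611, block 0.0296).

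Each gene of the remaining pair overlaps another gene model on its own strand, and the summed level of the models did not separate the groups. Galnt2, another enzyme that starts O-glycans and the only gene that fell, had 27.8, 33.1 and 23.1 CPM in H2O2/saline bladders, against 101, 106 and 87.3 CPM in controls (log2 fold change -1.81 ± 0.21, adjusted p = 0.0150). Gm20388, a model on the same strand whose span overlaps that of Galnt2, had 223, 187 and 200.2 CPM in H2O2/saline bladders, against 122, 129 and 108 CPM in controls. Summed, the 2 models had 251, 220.4 and 223 CPM in H2O2/saline bladders and 223, 235 and 195 CPM in controls, with a log2 fold change of 0.0897 ± 0.18 (SE, adjusted p = 0.852), so the groups overlapped. Aarsd1, a protein with an alanyl-tRNA editing domain, had 26.7, 21.0 and 17.9 CPM in H2O2/saline bladders, against 3.41, 1.35 and 1.70 CPM in controls (log2 fold change 3.34 ± 0.34, adjusted p = 0.00900). Its overlapping model on the same strand, Gm27029, had 41.1, 32.8 and 27.5 CPM in H2O2/saline bladders, against 66.2, 51.5 and 47.5 CPM in controls. Their sum was 67.8, 53.8 and 45.4 CPM in H2O2/saline bladders and 69.6, 52.9 and 49.2 CPM in controls, a log2 fold change of -0.0401 ± 0.20 (SE, adjusted p = 0.951). Galnt2 and Aarsd1 are therefore reported as uncertain, since no source used here says how reads shared by such models were divided.

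**Figure D3:**
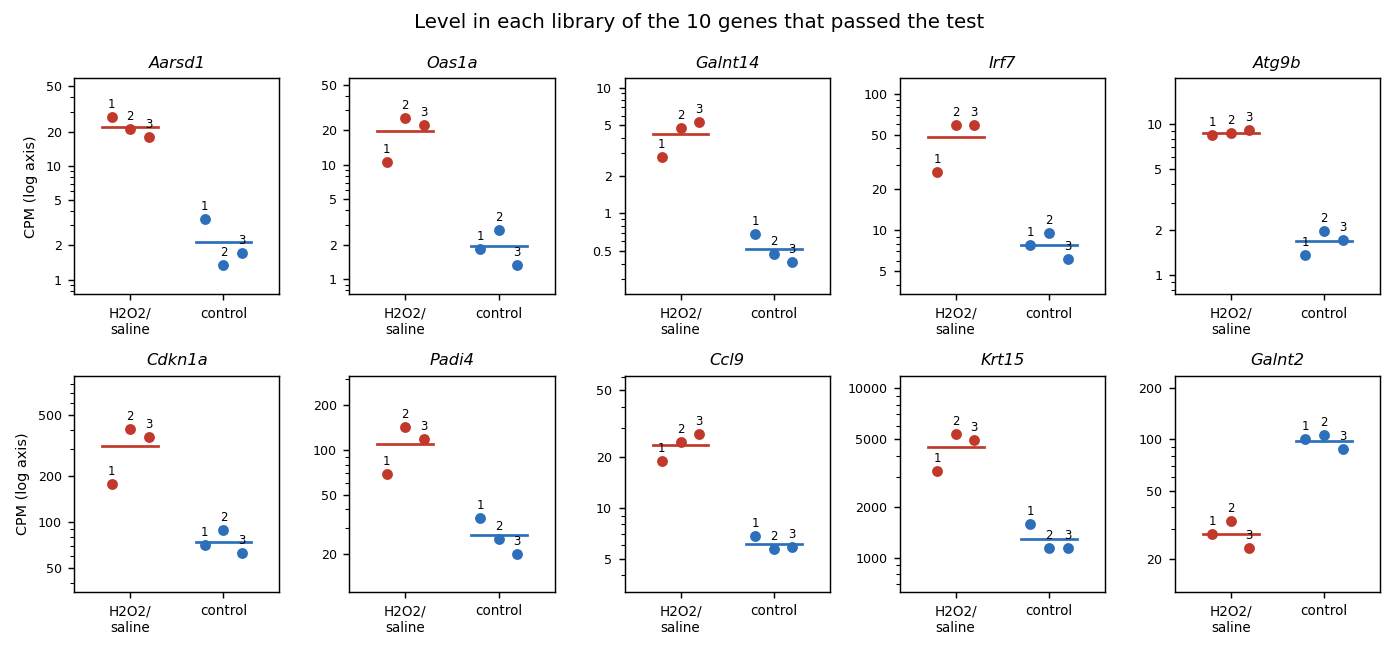
Levels of the 10 called genes in CPM (y axis, log scale) with the 3 H2O2/saline bladders left of the 3 controls, each point numbered by replicate and bars at the group means. No injured library overlaps a control in any panel, and H2O2/saline 1 is the lowest injured library for Cdkn1a, Krt15, Padi4, Ccl9, Irf7, Galnt14, Atg9b and Oas1a.

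Of the 50 gene lists, 36 had a positive median fold change. In 16 lists the medians of all 3 H2O2/saline libraries lay above those of all 3 controls, and in 1 they lay below. With H2O2/saline 2 and 3 alone the numbers were 29 lists above and 3 below. Of 769 tested entries over the lists, 134 were called higher and 19 lower with the block, counting a gene once for each list that holds it. Over all tested genes 2.97% were called higher and 1.82% lower with the block. Every injured library was above every control for 9.70% of all tested genes and below for 8.96%. These shares are the background for the counts of members given below. The lists were written with results of these data known, so counts and medians are given and no list was tested.

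**Figure D4:**
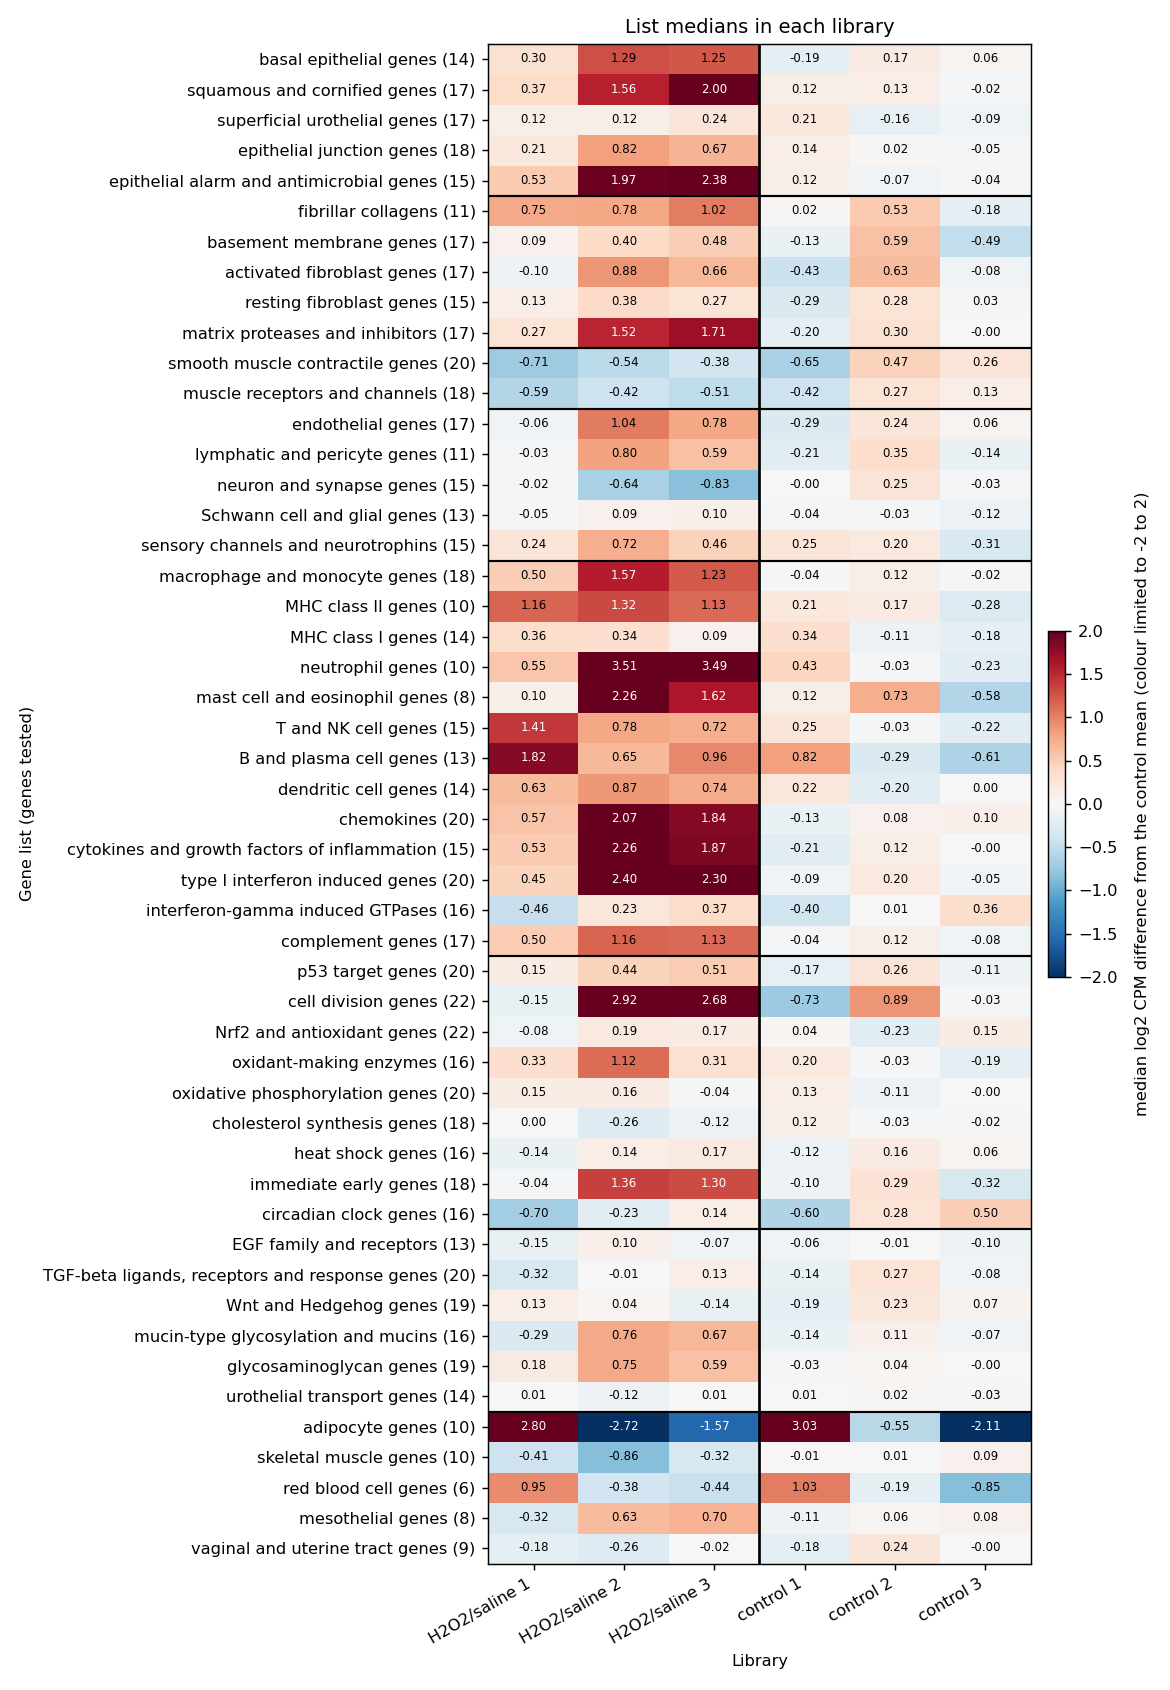
Heat map of the median log2 difference from the control mean of each of the 50 gene lists (down the page, tested genes in brackets) in each H2O2/saline bladder and each control (across), with colour limited to -2 to 2 and the value printed in each cell. Basal epithelial genes are at 0.30, 1.29 and 1.25 in H2O2/saline 1, 2 and 3, whereas T and NK cell genes are highest in H2O2/saline 1.

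Type I interferon genes were among the groups with the most members higher. Of 20 tested, 18 had a positive fold change, 10 had every injured library above every control and 1 had every one below, 2 were among the 10 called genes, and 10 were called higher with the block. The median log2 fold change was 1.81. Oasl1, an inhibitor of Irf7 translation in mice, had 4.77, 30.4 and 25.04 CPM in H2O2/saline bladders, against 1.90, 2.17 and 1.16 CPM in controls (log2 fold change 3.52 ± 0.68, adjusted p = 0.0600, block 0.0180). Isg15, a ubiquitin-like protein attached to viral and host proteins, had 6.47, 16.9 and 8.92 CPM in H2O2/saline bladders, against 1.75, 2.40 and 2.06 CPM in controls (log2 fold change 2.38 ± 0.47, adjusted p = 0.0600, block 0.0135). In both genes each injured library was above every control. Oas3, a further oligoadenylate synthetase, had 2.05, 6.73 and 8.27 CPM in H2O2/saline bladders, against 0.106, 0.740 and 0.155 CPM in controls (log2 fold change 4.08 ± 0.80, adjusted p = 0.0600, block 0.0131). GTPases induced mainly by interferon gamma gave no such shift, with 8 of 16 positive, a median of -0.04 and none called with the block. Gbp2 had 6.10, 11.1 and 17.6 CPM in H2O2/saline bladders and 7.46, 24.5 and 16.8 CPM in controls, and the difference between the 2 lists was not tested.

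The promoters of 3 of these genes are printed because these genes were called with the block and the best-known interferon element can be looked for in them. Sequences are those of RefSeq on build GRCm38.p6, from 250 bases before to 50 bases after the annotated start, 5′ to 3′ on the gene's strand, and the build differs from that of the counts, so they serve only to show letters. Capitals mark matches to the interferon-stimulated response element, searched on both strands as GAAA, any 2 bases, GAAA, with overlaps allowed.
Oas1a (chr5:120907476-120907775, minus strand): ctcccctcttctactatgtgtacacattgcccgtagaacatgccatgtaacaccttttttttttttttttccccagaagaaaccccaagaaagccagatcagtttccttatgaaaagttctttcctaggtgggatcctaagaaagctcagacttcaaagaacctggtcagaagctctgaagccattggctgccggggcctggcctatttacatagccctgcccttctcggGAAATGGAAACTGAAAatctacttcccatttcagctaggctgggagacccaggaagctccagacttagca
Isg15 (chr4:156200769-156201068, minus strand): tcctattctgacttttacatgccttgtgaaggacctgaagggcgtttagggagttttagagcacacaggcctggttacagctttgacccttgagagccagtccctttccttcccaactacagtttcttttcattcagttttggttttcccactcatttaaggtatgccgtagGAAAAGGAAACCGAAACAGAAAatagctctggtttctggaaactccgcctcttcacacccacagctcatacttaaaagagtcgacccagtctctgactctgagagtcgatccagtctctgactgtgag
Irf7 (chr7:141266375-141266674, minus strand): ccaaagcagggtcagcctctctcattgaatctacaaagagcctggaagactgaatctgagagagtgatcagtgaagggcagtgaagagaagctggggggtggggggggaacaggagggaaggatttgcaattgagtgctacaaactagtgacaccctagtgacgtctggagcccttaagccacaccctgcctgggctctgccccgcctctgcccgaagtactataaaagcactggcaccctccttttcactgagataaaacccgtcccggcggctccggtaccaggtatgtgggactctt
Oas1a held 2 matches and Isg15 held 3, overlapping in each case, and Irf7 held none. The element was in 8 of the 13 promoters matched for the interferon list (61.5%) and in 1 of 8 for the called genes (12.5%). It was in 26 of 410 for genes called higher with the block (6.34%) and in 400 of the 12679 matched for tested genes (3.15%). Promoters were matched by gene symbol and those of 1 chromosome were left out, so each set holds only part of its genes. TGANTCA, the letters bound by AP-1, searched on both strands with overlaps allowed, was in 3 of the 13 (23.1%), 2 of the 8 (25%), 47 of the 410 (11.5%) and 697 of the 12679 (5.5%). A match is a description of letters and not of binding.

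Several keratins of basal and stratified squamous epithelium were called higher with the block. Of 14 basal genes 11 were positive, with a median log2 fold change of 0.95. Krt15 rose and 9 were called higher with the block, against 2.97% of all genes. Krt5, the partner keratin of basal cells, had 4120.3, 4499 and 3874 CPM in H2O2/saline bladders, against 2463, 1394 and 979 CPM in controls (log2 fold change 1.37 ± 0.31, adjusted p = 0.0679, block 0.0135). Krt14 had 9.91, 1067 and 855 CPM in H2O2/saline bladders, against 5.55, 25.7 and 25.01 CPM in controls (log2 fold change 5.10 ± 1.34, adjusted p = 0.0866, block 0.0198), so H2O2/saline 2 and 3 were far above all controls and H2O2/saline 1 lay between control 1 and the other controls. Genes for 3 parts of the anchor that ties basal cells to the basement membrane were also called higher with the block. Col17a1, a transmembrane collagen of hemidesmosomes, had 46.1, 235 and 209 CPM in H2O2/saline bladders, against 11.3, 21.0 and 15.9 CPM in controls (log2 fold change 3.35 ± 0.55, adjusted p = 0.0600, block 0.00119). Col7a1, the collagen of anchoring fibrils, had 2.37, 81.0 and 65.6 CPM in H2O2/saline bladders, against 1.32, 1.08 and 1.44 CPM in controls (log2 fold change 5.27 ± 1.11, adjusted p = 0.0600, block 0.0250). Itgb4, the integrin chain of hemidesmosomes, had 375, 393 and 329 CPM in H2O2/saline bladders, against 225, 236 and 101 CPM in controls (log2 fold change 0.96 ± 0.32, adjusted p = 0.151, block 0.0480), with H2O2/saline 1 as high as the rest. The injured libraries were above every control for all 3, by margins that differed widely between genes.

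Squamous genes divided the libraries in the same way. Of 17, 13 were positive with a median of 1.36, and 7 were called higher with the block and none lower. Krt13, a keratin of non-cornified squamous lining, had 2.57, 359.8 and 288 CPM in H2O2/saline bladders, against 0.635, 0.475 and 0.258 CPM in controls (log2 fold change 8.89 ± 1.62, adjusted p = 0.0600, block 0.0139). Krt6a, a keratin of wounded skin whose close copy Krt6b may share reads, had 1.16, 576 and 416 CPM in H2O2/saline bladders, against 1.08, 0.291 and 0.464 CPM in controls (log2 fold change 9.07 ± 1.95, adjusted p = 0.0616, block 0.0431). Krt4, the partner of Krt13, was expressed in the controls already and had 1153, 2530.3 and 2219.5 CPM in H2O2/saline bladders, against 475, 531 and 364 CPM in controls (log2 fold change 2.11 ± 0.32, adjusted p = 0.0503, block 0.00993). H2O2/saline 1 therefore reached the level of its fellows for none of the 3. It was near the controls for Krt6a, and for Krt13 and Krt4 it lay above every control and below its fellows. Rarer members called with the block were Krt16 (0.0289, 6.29 and 3.39 CPM in H2O2/saline bladders and 0, 0.0264 and 0 CPM in controls), the desmosomal cadherin Dsg3 (0.173, 9.68 and 4.51 CPM in H2O2/saline bladders and 0.0529, 0 and 0.0516 CPM in controls), the cross-linking enzyme Tgm1 (2.54, 37.6 and 23.6 CPM in H2O2/saline bladders and 2.62, 2.88 and 1.598 CPM in controls) and Sbsn. Outside the list Sprr2f, a small proline-rich envelope protein with close copies, had 0.925, 106 and 102 CPM in H2O2/saline bladders, against 0.529, 0 and 0.412 CPM in controls (log2 fold change 7.78 ± 1.63, adjusted p = 0.0600, block 0.0231). Sprr2a1, a further envelope gene with close copies, took more counts than any other gene in H2O2/saline 2 and 3, at 8239, 16635 and 15201 CPM in H2O2/saline bladders and 8635, 6285 and 8566 CPM in controls (log2 fold change 0.77 ± 0.31, adjusted p = 0.217, block 0.153), and H2O2/saline 1 lay among the controls. The groups overlapped for another pair of envelope genes: Sprr1a had 2635, 2790.2 and 3112 CPM in H2O2/saline bladders and 2779, 1811 and 2289.9 CPM in controls, and Ivl had 59.2, 166 and 172 CPM in H2O2/saline bladders and 92.3, 131 and 117 CPM in controls.

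Superficial genes had fold changes of both signs. The list had 10 of 17 members positive and a median of 0.13. With the block 2 members were called higher and 2 lower, both of those lower being uroplakins. Upk1a, with the values given above, was called lower with the block (adjusted p = 0.286 without the block and 0.0460 with it). Upk2 had 1775, 663 and 783 CPM in H2O2/saline bladders, against 2412, 1617 and 1782 CPM in controls (log2 fold change -0.85 ± 0.33, adjusted p = 0.204, block 0.0420). For both genes H2O2/saline 1 lay within the range of the controls. Other uroplakins of the list were not called. Upk3a had 4119, 1599.7 and 1635 CPM in H2O2/saline bladders and 5397, 4192 and 4536 CPM in controls, lower in H2O2/saline 2 and 3 than in every control (log2 fold change -0.94 ± 0.33, adjusted p = 0.168, block 0.0580). Upk1b had 1370.0, 1232 and 1441 CPM in H2O2/saline bladders and 1279.8, 907 and 1255 CPM in controls, and Upk3b had 1268, 892 and 852 CPM in H2O2/saline bladders and 1466, 1090.2 and 982 CPM in controls, with overlap in both. Krt19, a keratin of the same cells, and Elf3 were called higher. Krt19 had 3219, 9834 and 8272 CPM in H2O2/saline bladders, against 2854, 2223 and 1951 CPM in controls (log2 fold change 1.601 ± 0.38, adjusted p = 0.0696, block 0.0408). Elf3, an epithelial transcription factor, had 309, 558 and 496 CPM in H2O2/saline bladders, against 260.4, 203 and 219 CPM in controls (log2 fold change 0.998 ± 0.23, adjusted p = 0.0679, block 0.0349). Krt8 and Krt7, keratins of simple epithelium, were above every control in H2O2/saline 2 and 3 and were not called, Krt8 being at 4162, 7684 and 6494 CPM in H2O2/saline bladders and 4349, 2782 and 2678 CPM in controls (log2 fold change 0.90 ± 0.27, adjusted p = 0.116, block 0.0765).

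Among 18 junction genes 13 were positive, with a median of 0.60. Pkp1, a plakophilin of squamous desmosomes, had 27.7, 128 and 117 CPM in H2O2/saline bladders, against 16.6, 16.9 and 15.6 CPM in controls (log2 fold change 2.47 ± 0.47, adjusted p = 0.0600, block 0.0147). Cldn8, a claudin of tight junctions that seal the epithelium, had 16.8, 5.90 and 5.05 CPM in H2O2/saline bladders, against 32.3, 30.3 and 59.7 CPM in controls (log2 fold change -2.14 ± 0.43, adjusted p = 0.0600, block 0.0196). Pkp1 was called higher and Cldn8 lower with the block, and neither gene's groups overlapped. Cldn4, the claudin of the list with the most reads, had 980.2, 1553 and 1237 CPM in H2O2/saline bladders and 964, 684 and 559.6 CPM in controls (log2 fold change 0.77 ± 0.25, adjusted p = 0.133, block 0.0806).

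Alarm and antimicrobial genes had 11 of 15 members positive and a median of 1.96, with 3 called higher and 2 lower with the block. Il33, an alarmin stored in epithelial nuclei, was at 3.41, 87.6 and 73.9 CPM in H2O2/saline bladders, against 2.04, 2.56 and 2.47 CPM in controls (log2 fold change 4.54 ± 0.94, adjusted p = 0.0600, block 0.0207). Ltf, the iron-binding protein lactoferrin, was at 0.434, 21.3 and 15.4 CPM in H2O2/saline bladders and had no count in any control, at least 156-fold higher on the mean against a floor of 3 counts per library. Against these, Pigr, the carrier of antibodies across epithelia, had 4.77, 2.61 and 3.72 CPM in H2O2/saline bladders, against 6.58, 10.1 and 17.0 CPM in controls (log2 fold change -1.603 ± 0.37, adjusted p = 0.0679, block 0.0415). Nos2, the inducible nitric oxide synthase, had 2.49, 0.880 and 1.04 CPM in H2O2/saline bladders, against 5.02, 5.34 and 3.66 CPM in controls (log2 fold change -1.67 ± 0.44, adjusted p = 0.0858, block 0.0368), with all injured libraries below all controls.

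Genes with no count in any control include several with the largest shifts, and in most of those named here H2O2/saline 1 was close to zero. Fam3b, a secreted protein of the FAM3 cytokine-like family, had 0.520, 30.2 and 34.4 CPM in H2O2/saline bladders, at least 274-fold higher on the mean. Ppbp, a chemokine precursor stored in platelets, had 0.0578, 22.9 and 14.96 CPM, at least 160-fold higher. Anxa10, an annexin, had 0, 5.77 and 6.64 CPM, at least 52.2-fold higher. Each was called with the block (adjusted p = 0.000150, 0.000408 and 0.0117) and not without it. Igkv8-16, an immunoglobulin variable segment, was the exception, with 10.3, 0.673 and 0 CPM in H2O2/saline bladders, that is, in H2O2/saline 1 above all.

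Most macrophage genes had positive fold changes. Of 18 macrophage genes 16 were positive, 11 had every injured library above every control, and 9 were called higher with the block and none lower, with a median log2 fold change of 1.12. The complement starter C1qa, made by tissue macrophages, had 127, 231 and 199.99 CPM in H2O2/saline bladders, against 76.2, 84.8 and 74.1 CPM in controls (log2 fold change 1.25 ± 0.27, adjusted p = 0.0616, block 0.0135). Fcgr1, a high-affinity antibody receptor, had 3.41, 8.20 and 10.7 CPM in H2O2/saline bladders, against 1.85, 1.53 and 0.980 CPM in controls (log2 fold change 2.35 ± 0.45, adjusted p = 0.0600, block 0.0252). Trem2, a lipid receptor of phagocytes, had 12.2, 36.2 and 29.4 CPM in H2O2/saline bladders, against 9.89, 7.79 and 6.21 CPM in controls (log2 fold change 1.70 ± 0.43, adjusted p = 0.0826, block 0.0409). Genes of MHC class II, which present antigen to helper T cells, separated the groups in nearly every member, with 10 of 10 positive, 9 without overlap, 8 called higher with the block and a median of 1.19. Cd74, the invariant chain, had 361, 591 and 531 CPM in H2O2/saline bladders, against 192, 171 and 109 CPM in controls (log2 fold change 1.65 ± 0.27, adjusted p = 0.0600, block 0.0129). Ciita, the regulator that switches these genes on, had 3.09, 5.74 and 5.70 CPM in H2O2/saline bladders, against 1.96, 1.61 and 0.851 CPM in controls (log2 fold change 1.72 ± 0.39, adjusted p = 0.0675, block 0.0383). MHC class I genes had a median of 0.16 and none called, H2-D1 being at 1259.6, 1169 and 1006 CPM in H2O2/saline bladders and 1273, 945 and 849 CPM in controls.

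Neutrophil genes had the highest median of the 50 lists, 2.96 over 10 members, all positive, but 8 of the 10 were rare. Setting the members with no control count at their lower bound left this median and those of the 6 other lists with such members as they were. Csf3r, the receptor for granulocyte colony-stimulating factor, had 1.27, 7.84 and 6.44 CPM in H2O2/saline bladders, against 1.14, 0.924 and 0.516 CPM in controls (log2 fold change 2.59 ± 0.61, adjusted p = 0.0696, block 0.0488). Mmp9, a gelatinase stored in neutrophil granules, had 27.0, 30.5 and 23.4 CPM in H2O2/saline bladders and 28.7, 25.5 and 23.8 CPM in controls, with no separation. S100a8 and S100a9, the main cytosolic proteins of neutrophils, were at 0.462, 2.95 and 1.54 CPM and 0, 0.931 and 1.96 CPM in H2O2/saline bladders, against 0.264, 0 and 0 CPM and 0.0529, 0 and 0 CPM in controls, and neither was called. Padi4 and Mmp9 were the members above 10 CPM in every library. Of 15 T and NK cell genes 14 were positive and none was called in either fit, and their summed level was 16.6 to 21.1 CPM in H2O2/saline bladders and 10.4 to 14.0 CPM in controls. Here H2O2/saline 1 was the highest library, with a list median of 1.41 log2 units above the control mean, against 0.78 and 0.72 in its fellows. B and plasma cell genes likewise had 12 of 13 positive and none called, with 1.82 in H2O2/saline 1, 0.65 and 0.96 in the others and 0.82 in control 1. Among mast cell genes Tpsb2, a tryptase, had 8.58, 33.3 and 24.5 CPM in H2O2/saline bladders, against 5.21, 15.5 and 6.63 CPM in controls (log2 fold change 1.28 ± 0.50, adjusted p = 0.204, block 0.0288). Dendritic cell genes had 4 of 14 called higher with the block, among them Ccr7, the receptor that guides these cells to lymph nodes, at 1.68, 6.80 and 6.51 CPM in H2O2/saline bladders, against 0.793, 0.211 and 0.258 CPM in controls (log2 fold change 3.56 ± 0.72, adjusted p = 0.0600, block 0.0361).

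Chemokines and cytokines had high medians, while most single members were not called. Of 20 chemokines 19 were positive with a median of 1.63, and 7 had every injured library above every control and 1 every one below. Ccl9 rose, and 7 were called higher and 1 lower with the block. Ccl8 had 8.84, 62.6 and 53.2 CPM in H2O2/saline bladders, against 2.46, 3.20 and 2.94 CPM in controls (log2 fold change 3.86 ± 0.67, adjusted p = 0.0600, block 0.00586). Ccl6, encoded next to Ccl9 in the same cluster, had 37.6, 71.0 and 60.7 CPM in H2O2/saline bladders, against 15.8, 16.8 and 20.5 CPM in controls (log2 fold change 1.67 ± 0.28, adjusted p = 0.0600, block 0.00584). Ccl22 and Ccl17, ligands of Ccr4, a chemokine receptor of T cells, had 2.89, 10.1 and 17.7 and 3.99, 7.76 and 6.29 CPM in H2O2/saline bladders, against 0.873, 2.11 and 0.464 and 2.86, 0.951 and 1.19 CPM in controls. The member called lower was Cxcl14, a constitutive epithelial chemokine, at 95.6, 87.0 and 99.1 CPM in H2O2/saline bladders, against 147, 183 and 131 CPM in controls (log2 fold change -0.71 ± 0.19, adjusted p = 0.0915, block 0.0487). Among cytokines 5 of 15 were called higher and none lower with the block, 7 had every injured library above every control and 2 every one below, and the median was 1.85. Il1rn, the natural blocker of interleukin-1 receptors, had 6.65, 47.9 and 56.3 CPM in H2O2/saline bladders, against 4.94, 2.91 and 2.94 CPM in controls (log2 fold change 3.36 ± 0.69, adjusted p = 0.0600, block 0.0341). Il1b had 0.0578, 1.604 and 2.33 CPM in H2O2/saline bladders and no count in any control, at least 16.8-fold higher on the mean, with a block adjusted p of 0.0261. Complement genes had 15 of 17 positive and 6 called higher with the block, C4b being at 194, 305 and 284 CPM in H2O2/saline bladders, against 165, 85.1 and 43.3 CPM in controls (log2 fold change 1.42 ± 0.38, adjusted p = 0.0913, block 0.0397).

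In the stroma, fibrillar collagen genes had mostly positive and muscle genes mostly negative fold changes, with wide spread among controls. Fibrillar collagens had 9 of 11 positive, a median of 0.74 and 2 called higher with the block. Col3a1, the collagen of soft early matrix, had 1079, 1882 and 1794 CPM in H2O2/saline bladders, against 542, 1092 and 637 CPM in controls (log2 fold change 1.07 ± 0.30, adjusted p = 0.0990, block 0.0252). Col1a1 had 2261, 1586 and 1458 CPM in H2O2/saline bladders, against 1175, 1439 and 589 CPM in controls (log2 fold change 0.73 ± 0.35, adjusted p = 0.312, block 0.135), the highest value being in H2O2/saline 1, unlike most genes above. Basement membrane genes were mostly positive but none was called and none separated the groups. Timp1, a metalloprotease inhibitor in the activated fibroblast list, had 9.71, 79.9 and 71.4 CPM in H2O2/saline bladders, against 4.15, 5.28 and 7.24 CPM in controls (log2 fold change 3.27 ± 0.68, adjusted p = 0.0600, block 0.0135). Fn1 and Acta2 of the same list overlapped between groups, Fn1 being at 691, 1354 and 1343 CPM in H2O2/saline bladders and 569, 2252 and 727 CPM in controls.

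Matrix proteases had 8 of 17 members called higher with the block and a median of 1.21. Mmp14, a membrane-bound collagenase, had 96.5, 185 and 167 CPM in H2O2/saline bladders, against 63.3, 78.5 and 52.3 CPM in controls (log2 fold change 1.21 ± 0.25, adjusted p = 0.0600, block 0.0196). Plat, the tissue plasminogen activator, had 22.6, 118 and 89.3 CPM in H2O2/saline bladders, against 11, 23.2 and 18.3 CPM in controls (log2 fold change 2.13 ± 0.50, adjusted p = 0.0679, block 0.0129). Mmp10 and Mmp7, made by wounded epithelium, had no count in any control and reached 0.116, 3.49 and 2.80 CPM and 0, 2.98 and 2.60 CPM in H2O2/saline bladders, at least 26.9-fold and 23.4-fold higher on the mean. Among resting fibroblast genes Ogn, a small proteoglycan, was called lower (14.05, 12.5 and 13.99 CPM in H2O2/saline bladders, against 20.8, 32.1 and 24.5 CPM in controls) and Sfrp1, a secreted Wnt antagonist, higher (6.36, 53.6 and 58.6 CPM in H2O2/saline bladders, against 6.24, 8.51 and 11.6 CPM in controls) with the block.

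None of 20 smooth muscle contractile genes had a positive fold change, and the median was -0.55. Only 2 were called lower with the block, and 4 had every injured library below every control. Synpo2, an actin-bundling protein of muscle Z-discs, had 367, 256 and 266 CPM in H2O2/saline bladders, against 452, 926 and 668 CPM in controls (log2 fold change -1.201 ± 0.28, adjusted p = 0.0679, block 0.0387). Synm, an intermediate filament protein, had 392.3, 294 and 310.5 CPM in H2O2/saline bladders, against 440.3, 956 and 808 CPM in controls (log2 fold change -1.14 ± 0.27, adjusted p = 0.0679, block 0.0412). For the 4 members with the most reads the groups overlapped, with control 1 the lowest library: Actg2, the visceral actin, had 3325, 5839.8 and 5432 CPM in H2O2/saline bladders and 2588, 7115 and 6429 CPM in controls. The list sums were 24733, 32525 and 31341 CPM in H2O2/saline bladders and 23129, 52804 and 44636 CPM in controls. Receptors and channels of the muscle had 5 of 18 positive and a median of -0.47. Pde5a, the phosphodiesterase that degrades cyclic GMP, was the member called lower with the block, at 57.0, 76.2 and 80.6 CPM in H2O2/saline bladders, against 90.1, 134 and 167 CPM in controls (log2 fold change -0.87 ± 0.27, adjusted p = 0.127, block 0.0184). P2rx1, the ATP-gated channel that drives part of bladder contraction, had 711, 574 and 563 CPM in H2O2/saline bladders, against 722, 1102 and 826 CPM in controls, without overlap but not called (log2 fold change -0.52 ± 0.22, adjusted p = 0.235, block 0.169).

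Vessel genes called with the block were of both signs. Endothelial genes had 12 of 17 positive, a median of 0.67 and 4 called higher and 1 lower with the block. The 11 lymphatic and pericyte genes had 7 positive, a median of 0.43, and 2 called higher and 1 lower. Tie1, an endothelial receptor, had 53.6, 93.9 and 83.9 CPM in H2O2/saline bladders, against 44.4, 43.3 and 29.8 CPM in controls (log2 fold change 0.98 ± 0.24, adjusted p = 0.0739, block 0.0333), whereas Sele, the selectin that slows leukocytes on activated endothelium, had 5.81, 2.66 and 5.18 CPM in H2O2/saline bladders, against 9.63, 9.43 and 19.2 CPM in controls (log2 fold change -1.49 ± 0.38, adjusted p = 0.0826, block 0.0383). Flt4, the receptor of lymphatic endothelium, was called higher with the block, at 20.1, 29.96 and 29.2 CPM in H2O2/saline bladders, against 13.99, 10.7 and 9.36 CPM in controls. Rgs5, a pericyte and mural cell marker, had 51.7, 24.0 and 29.3 CPM in H2O2/saline bladders, against 102, 93.1 and 191 CPM in controls (log2 fold change -1.88 ± 0.34, adjusted p = 0.0600, block 0.0135), and was lower in all injured bladders including H2O2/saline 1.

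The list of 15 neuron genes differed by library. Its median differences from the control mean were -0.02, -0.64 and -0.83 log2 units in H2O2/saline 1, 2 and 3, against -0.0028, 0.25 and -0.03 in controls 1, 2 and 3. The median fitted log2 fold change was -0.09, and -0.89 without H2O2/saline 1. With the block 2 members were called lower and none higher. The list summed to 1196, 254 and 301 CPM in H2O2/saline bladders, against 2027, 1221 and 1384 CPM in controls, most of it from Uchl1. The Schwann cell list had a median of -0.07, with 3 of 13 called higher and 1 lower with the block. Ngfr, the low-affinity neurotrophin receptor found on repair Schwann cells, had 5.61, 11.6 and 12.7 CPM in H2O2/saline bladders, against 2.41, 1.796 and 1.75 CPM in controls (log2 fold change 2.33 ± 0.36, adjusted p = 0.0503, block 0.0135). Bdkrb1, the inducible bradykinin receptor, had 0.231, 9.26 and 7.01 CPM in H2O2/saline bladders, against 0.0529, 0 and 0.0516 CPM in controls (log2 fold change 7.18 ± 1.43, adjusted p = 0.0600, block 0.0137). H2O2/saline 1 had next to none of it. Uchl1, a ubiquitin hydrolase of neurons also present in epithelium, had 1064, 149 and 215 CPM in H2O2/saline bladders, against 1857, 1053 and 1248 CPM in controls (log2 fold change -1.54 ± 0.60, adjusted p = 0.209, block 0.0193). Kif1a, a motor that carries synaptic vesicles along axons, had 27.0, 5.07 and 4.26 CPM in H2O2/saline bladders, against 32.2, 36.7 and 32.4 CPM in controls (log2 fold change -1.48 ± 0.72, adjusted p = 0.309, block 0.0308). Gfra3, a receptor for artemin on nociceptors and glia, had 9.91, 7.84 and 5.94 CPM in H2O2/saline bladders, against 16.3, 18.4 and 22.2 CPM in controls (log2 fold change -1.26 ± 0.30, adjusted p = 0.0696, block 0.0331). Trpv4 and Piezo1, mechanosensitive channels of urothelium, overlapped between groups, Trpv4 being at 246, 239 and 196 CPM in H2O2/saline bladders and 228, 196 and 114 CPM in controls.

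The list median of cell division genes was above every control in H2O2/saline 2 and 3. In H2O2/saline 1 it lay within the range of the controls. The medians were -0.15, 2.92 and 2.68 log2 units from the control mean in H2O2/saline bladders, against -0.73, 0.89 and -0.03 in controls. All 22 had a positive fold change with a median of 2.22, yet only 3 separated all injured bladders from all controls. With the block 9 were called higher, and 16 without H2O2/saline 1. Mcm5, a part of the helicase that opens replication origins, had 23.01, 106 and 89.5 CPM in H2O2/saline bladders, against 15.9, 18.4 and 11.5 CPM in controls (log2 fold change 2.25 ± 0.49, adjusted p = 0.0616, block 0.0209). Cdk1, the kinase that starts mitosis, had 1.10, 24.6 and 21.2 CPM in H2O2/saline bladders, against 0.317, 4.09 and 1.75 CPM in controls (log2 fold change 2.92 ± 0.99, adjusted p = 0.153, block 0.0211). H2O2/saline 1 was above control 1 and below controls 2 and 3 for Cdk1. Beside Cdkn1a, other p53 targets called higher with the block were the death receptor Tnfrsf10b, at 9.28, 15.7 and 14.2 CPM in H2O2/saline bladders, against 2.88, 6.498 and 1.86 CPM in controls (log2 fold change 1.801 ± 0.41, adjusted p = 0.0679, block 0.0208), and Eda2r, at 1.16, 1.14 and 2.23 CPM in H2O2/saline bladders, against 0.0529, 0.317 and 0.155 CPM in controls. Immediate early genes, switched on within minutes of a stimulus, showed the same division, with list medians of -0.04, 1.36 and 1.303 in H2O2/saline bladders and 1 member, Egr2, called with the block. The p53 list as a whole had 15 of 20 positive and a median of 0.41.

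Genes of the oxidant defence had a median near that of all genes. The Nrf2 and antioxidant list had 13 of 22 positive and a median of 0.08. Gpx2, an epithelial glutathione peroxidase, was its 1 member called with the block, at 49.5, 349 and 280.2 CPM in H2O2/saline bladders, against 42.9, 28.6 and 40.3 CPM in controls (log2 fold change 2.60 ± 0.60, adjusted p = 0.0679, block 0.0415). Gstm1, a glutathione transferase with close copies and the member with the most reads, had 17059.6, 4479 and 5809 CPM in H2O2/saline bladders, against 19626, 10874 and 15484 CPM in controls (log2 fold change -0.75 ± 0.45, adjusted p = 0.423, block 0.0584). Enzymes that make oxidants had 4 of 16 called higher with the block, and 1 lower, Nos2, with the values given above. The 4 were all parts of the phagocyte NADPH oxidase or its regulators. Oxidative phosphorylation genes (median 0.08), cholesterol synthesis genes (median -0.14) and interferon-gamma GTPases had no member called in either fit, and 1 heat shock gene, Hsp90aa1, was called lower with the block (23.01, 28.1 and 29.9 CPM in H2O2/saline bladders, against 35.6, 55.2 and 59.4 CPM in controls).

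**Figure D5:**
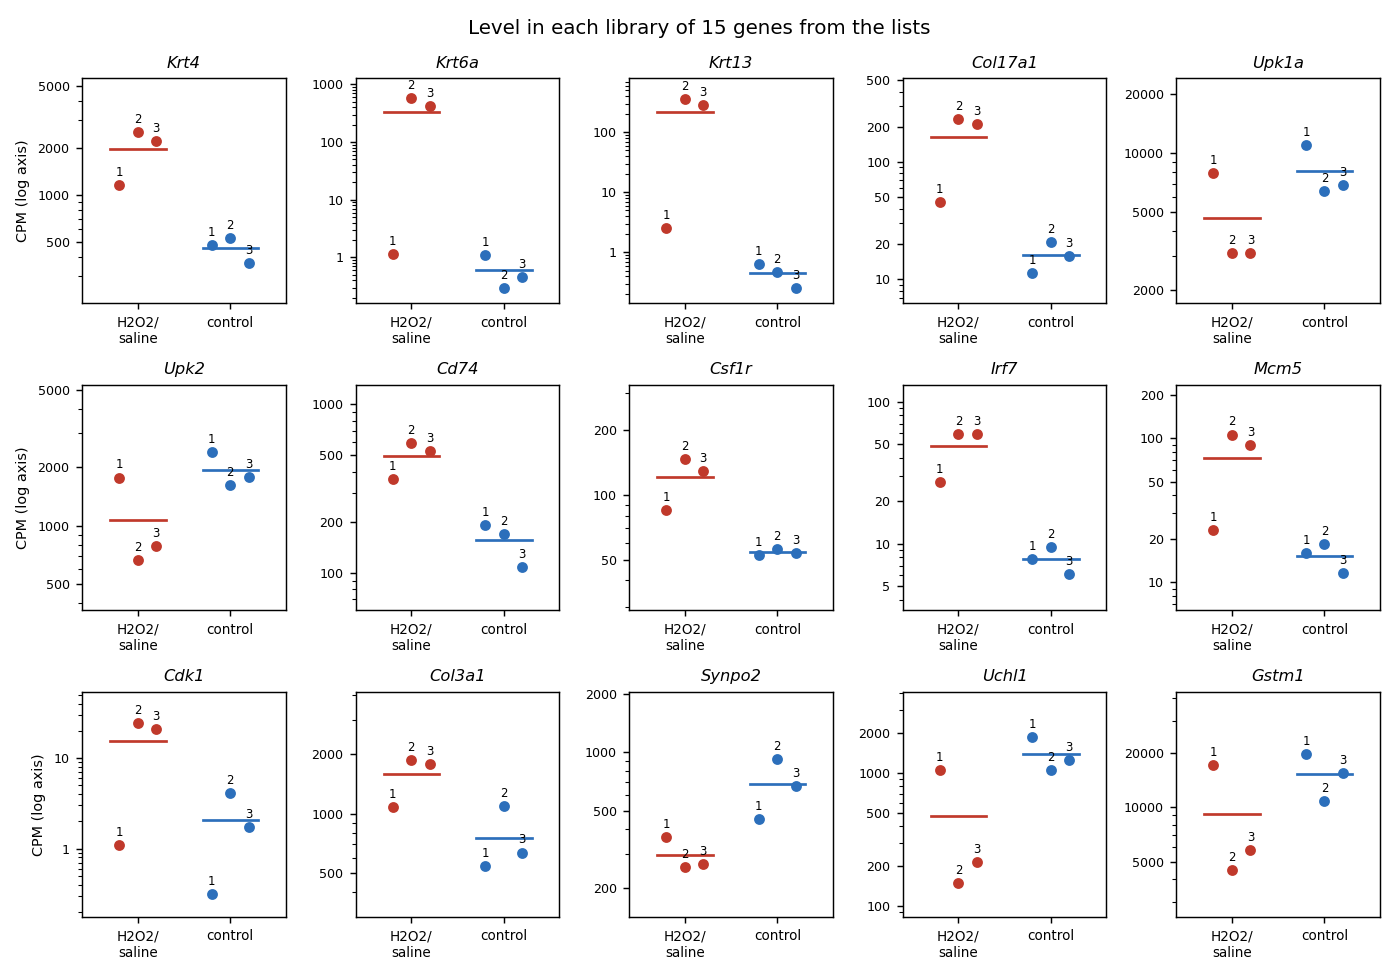
Levels of 15 genes of the programmes described, in CPM (y axis, log scale), with the 3 H2O2/saline bladders left of the 3 controls, points numbered by replicate and bars at the group means. For Krt6a, Krt13 and Cdk1 H2O2/saline 1 lies nearer the controls than its fellows, and for Cd74, Csf1r and Irf7 it lies above every control.

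In the growth factor lists single members were called with the block. Areg, an EGF family ligand made after injury, had 2.11, 64.3 and 69.5 CPM in H2O2/saline bladders, against 1.005, 3.06 and 0.103 CPM in controls (log2 fold change 5.03 ± 1.31, adjusted p = 0.0854, block 0.0387), while its list had a median of -0.01. Of the TGF-beta genes 9 of 20 were positive with a median of -0.12, and 4 were called higher with the block and none lower. The ligand Tgfb1 had 102, 148 and 122 CPM in H2O2/saline bladders, against 82.9, 71.5 and 37.5 CPM in controls (log2 fold change 0.95 ± 0.29, adjusted p = 0.121, block 0.0441). Tgfbi, a matrix protein named for its induction by TGF-beta, had 83.8, 155 and 138 CPM in H2O2/saline bladders, against 57.8, 57.4 and 54.4 CPM in controls (log2 fold change 1.15 ± 0.24, adjusted p = 0.0600, block 0.0251). Tgfb3 was lower on the mean with overlap, at 30.6, 35.5 and 40.2 CPM in H2O2/saline bladders and 23.2, 60.5 and 40.9 CPM in controls. Hhip, a binding protein that restrains Hedgehog, was called lower with the block, at 2.72, 0.517 and 0.396 CPM in H2O2/saline bladders, against 3.33, 9.14 and 6.24 CPM in controls (log2 fold change -2.37 ± 0.67, adjusted p = 0.105, block 0.0446). Has3, a hyaluronan synthase, and Cd44, the hyaluronan receptor, were called higher with the block: Has3 had 7.49, 31.4 and 35.2 CPM in H2O2/saline bladders, against 3.91, 6.26 and 5.59 CPM in controls (log2 fold change 2.23 ± 0.47, adjusted p = 0.0600, block 0.0135), and Cd44 had 13.6, 60.8 and 70.7 CPM in H2O2/saline bladders, against 9.20, 11.1 and 16.9 CPM in controls (log2 fold change 1.96 ± 0.51, adjusted p = 0.0833, block 0.0219).

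Genes called lower with the block were led by rare transcripts. Ttr, the thyroxine carrier, had 22.1, 1.66 and 1.98 CPM in H2O2/saline bladders, against 105, 30.3 and 74.3 CPM in controls (log2 fold change -3.03 ± 0.83, adjusted p = 0.0971, block 0.0209). Rsph4a, a spoke-head protein of motile cilia, had 0.983, 0 and 0 CPM in H2O2/saline bladders, against 4.20, 3.54 and 10 CPM in controls (log2 fold change -4.20 ± 1.18, adjusted p = 0.104, block 0.0415). Hrh3, a histamine receptor of nerve endings, had 8.70, 0.7503 and 3.64 CPM in H2O2/saline bladders, against 17.8, 14.8 and 13.4 CPM in controls (log2 fold change -1.82 ± 0.64, adjusted p = 0.165, block 0.0299). In all 3 genes every injured library was below every control, and H2O2/saline 1 was the nearest to them. Further genes of this set were Nsg2, Sult4a1, Dnajc6, Dbndd1, Cep72, Ager, Plpp4, Ankfn1 and Kl.

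How far H2O2/saline 1 lay from the control mean, relative to H2O2/saline 2 and 3, differed between genes. For the 896 genes of at least 1 CPM called with the block, 889 had the same direction in all 3 same-numbered pairs. The block fit favours genes whose same-numbered differences agree, so this count largely follows from how the genes were chosen. The share was the deviation of H2O2/saline 1 divided by the mean deviation of H2O2/saline 2 and 3, and its median was 0.46 with quartiles of 0.24 and 0.78. It was below 0.25 for 240 genes, of which 29 had a share below 0, and above 0.75 for 236. Krt14, Sfrp1, Tk1, a thymidine kinase of dividing cells, and Igfbp7 were among the lowest, Tk1 being at 6.10, 51.5 and 47.7 CPM in H2O2/saline bladders, against 6.27, 10.8 and 6.21 CPM in controls. Npm1 and Nop58, nucleolar proteins of ribosome assembly, were among the highest, with lower values in H2O2/saline 1 than in its fellows: Npm1 had 37.3, 61.4 and 65.9 CPM in H2O2/saline bladders, against 63.2, 81.4 and 109 CPM in controls (log2 fold change -0.62 ± 0.26, adjusted p = 0.232, block 0.0489). Since the genes were called with these 3 libraries, the shares describe them and were not tested. The deviations are from the mean of all 3 controls, so a difference common to control 1 and H2O2/saline 1 also enters the share. Control 1 was the lowest control for both Npm1 and Krt14.

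Control 1 and H2O2/saline 1 also stood together on genes of other tissues. Haemoglobin Hba-a1 was at 709, 298 and 262 CPM in H2O2/saline bladders and 794, 319.8 and 232 CPM in controls, with the high value in replicate 1 of each group. Cfd, the adipocyte protease adipsin, was at 104, 0 and 0 CPM in H2O2/saline bladders and 167, 1.11 and 0 CPM in controls. Dbp, a clock gene that cycles over the day, was lowest in replicate 1 of both groups, at 62.2, 157 and 179.5 CPM in H2O2/saline bladders and 29.5, 274 and 253 CPM in controls. The 6 red blood cell genes summed to 697 to 1698 CPM in H2O2/saline bladders and 555 to 1830 CPM in controls, the 10 adipocyte genes to 301 to 426 CPM in H2O2/saline bladders and 380 to 610 CPM in controls, and the 10 skeletal muscle genes to 925 to 1724 CPM in H2O2/saline bladders and 1006 to 1927 CPM in controls. None of the members of these 3 lists was called in either fit. Of 8 mesothelial genes only Krt19, which urothelium also expresses, was called with the block, and of 9 vaginal and uterine genes only Ltf. The 8 mesothelial genes summed to 4638 to 11076 CPM in H2O2/saline bladders and 3137 to 4487 CPM in controls. Krt19, with the values given above, made up most of that sum in every library, and the rest of it overlapped between groups. The 9 vaginal and uterine genes summed to 453 to 634 CPM in H2O2/saline bladders and 274 to 422 CPM in controls. No listed gene of these 5 tissues was at 0 in all 6 libraries, and the part of such tissue in the results was not tested.

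Over 2188 Gene Ontology terms that the deposited table links to at least 15 tested genes, the 10 with the highest medians comprised 7 of leukocyte movement or chemokines, keratin filament, antimicrobial humoral response (median 0.93) and B cell receptor signaling (0.83). They were read off after the values were known and were not tested. Neutrophil chemotaxis (48 genes) had a median log2 fold change of 1.27, with medians of 0.24, 1.74 and 1.73 in H2O2/saline 1, 2 and 3. In 15 of its genes the injured libraries were all above the controls, and in 5 they were all below. Over all tested genes the shares were 9.70% and 8.96%, so the count of 5 was near the share of all genes. Keratin filament (23 genes) had 0.94, with 11 genes without overlap and medians of 0.66, 1.27 and 1.03. The 10 with the lowest medians began with ionotropic glutamate receptor activity (15 genes, -0.56), motor neuron axon guidance (-0.54) and regulation of heart contraction (17 genes, -0.54). Then came GABA signaling (-0.49), I band (20 genes, -0.48), melanocyte differentiation (-0.47) and costamere (-0.46). The last were sarcomere organization (28 genes, -0.45), neuronal action potential (-0.45) and xenobiotic metabolic process (-0.44). I band had 3 genes called lower and none higher with the block.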

How the data were processed

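RNA of 9 bladder pieces was sequenced after poly-A selection, and the authors deposited 1 table with estimated counts per gene on GRCm39 beside log2 values that they normalized and centred per gene. The estimated counts need not be whole (32.0% of those above 0 were) and were rounded. Per the labels, reads were handled in Strand NGS, and the aligner, counting rule and use of strand are not stated in what was read here. No column of the authors' own comparisons was used, and every value column was mapped to a sample.

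Libraries were scaled by TMM, genes with low counts were dropped by filterByExpr, and the 9 libraries were fitted by group in edgeR 4.0.16 (quasi-likelihood test, R 4.3.3), with H2O2/saline tested against control and p-values adjusted by Benjamini-Hochberg over 19314 genes. The method was tested on simulated data. Adjusted p-values in the text come from this fit unless the block is named. CPM are counts scaled to effective library size, SE is that of the log2 fold change, and intervals of counting error were not used because spread between samples is larger. Libraries were grouped by label, while the comparison and the gene lists were chosen with earlier results of these data known. Symbols shared by several genes (103) were read from the one with the most reads.

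Samples of the 2 groups with the same replicate number had correlated deviations from their group means (0.312, 0.119 and 0.112), so a fit with the number as a block was run beside the main one. The labels do not say that a number marks a shared day or batch, and other pairings gave -0.191 to 0.0801. Named were the called genes, the 15 highest and 15 lowest block-called genes of at least 1 CPM with 1 direction in all pairs, the 4 members of each list with the most reads and its called members, the 10 genes with the largest and the 10 with the smallest share in H2O2/saline 1, and the RT-qPCR genes of the study. Gm20388, Gm27029, Nos3, Phrf1, Sprr2a1, Upk1b, Upk3a, Upk3b, CT010467.1, Anxa10, S100a8 and S100a9 were named after their values were seen. Some genes that this rule names are not reported here. Overlaps of gene spans came from GENCODE M21, by gene name only. Alternatives were DESeq2 1.42.0, limma 3.58.1, other scaling and filters, and leaving out each library.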

Additional observations from a re-analysis of the deposited data

How the results depend on the processing

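The count of 10 called genes depended strongly on the setting. It was 12 with DESeq2 size factors and 12 with upper-quartile scaling, 7 with limma-voom and 7 with limma on the authors' log2 values, of which 2 were among the 10. It was 1415 with the DESeq2 test, 1579 with no filter, 323 with at least 10 counts in every library, 718 at an adjusted p below 0.1 and 4 on the 6 libraries alone. The replicate block gave 925, the block on the 6 libraries 40 and replicates 2 and 3 alone 2521. The last 2 and limma on the authors' values were added after seeing the data, as were sums of overlapping genes. Leaving out 1 library moved the count between 0 and 1822: it was 252 without control 1 and 0 without control 2 or 3 (edgeR, with 2808 and 2418 genes at an unadjusted p below 0.05), 1822 without H2O2/saline 1 and 1 without H2O2/saline 2 or 3, and 33 and 5 without SB431542 replicates 1 and 2. All 10 genes were called without H2O2/saline 1, with the block, in DESeq2 and with either filter. Other settings kept fewer of the 10: 6 in limma-voom, 4 on the 6 libraries alone, and 5 and 8 without SB431542 replicates 2 and 3. Only 1 was kept without H2O2/saline 2 or 3, and 0 without control 2 or 3. The cause of these differences was not tested. Summing a called gene with same-strand overlapping genes left 8 calls and turned the log2 fold change of Aarsd1 to -0.0401 and of Galnt2 to 0.0897. Summing over either strand left 2 calls and gave -0.0403 and 0.0909, with 0.49 for Irf7 and 1.26 for Atg9b. Cdkn1a, Krt15, Padi4, Ccl9, Galnt14 and Oas1a were not summed and kept their own counts. Some of them were nevertheless no longer called in that refit. Of 925 genes called with the block, 41 share a same-strand span with another tested gene, and 24 of the 33 with separate groups kept them apart after summing. Over the 50 lists, 949 medians under alternatives stayed within 1 SD of the H2O2/saline libraries and 51 did not. That SD is wide where H2O2/saline 1 differs from its fellows, so staying within it says little about stability. The adipocyte median ran from -5.28 to 2.84 and the red blood cell median from -0.69 to 0.70, whereas the cell division median ran from 1.73 to 2.65. Of the list deviations of H2O2/saline 1, 117 stayed within 1 SD of the controls and 33 did not. Single genes followed through the alternatives were the 10 called ones, Il1b, Col7a1, Krt13, Krt6a, Krt14, Ppbp, Fam3b, Ltf, H2-Ab1 and Cldn8. Apart from Aarsd1 and Galnt2 when summed, none of these changed sign. Other named genes were not checked. Depth limits single libraries to about 0.0793 CPM, so ratios of the rarest genes rest on few counts.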

Other observations

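Some genes fell below the filter on low counts and so entered no test, and their values are given without explanation. Trpa1, the irritant-gated channel of sensory fibres, had 0, 58 and 61 counts in H2O2/saline bladders, against 0 counts in each control and in each SB431542 library. A further look found 15 untested genes, Trpa1 included, with no count in the controls and H2O2/saline 1 and at least 10 counts in both H2O2/saline 2 and 3, among them Mcpt1, Cldn6, Entpd8, Htr7 and Trpv3, which were chosen after their values were seen. No untested gene had the opposite pattern of at least 10 counts in every control and none in H2O2/saline 2 and 3. Gm26870, a gene model called higher with the block, was at 107, 9.99 and 10.9 CPM in H2O2/saline bladders, against 21.8, 1.24 and 1.73 CPM in controls, so replicate 1 was highest in both groups.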
